A study of Homo sapiens with 82 samples.

Results

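Acetylation of lysine 27 of histone H3 (H3K27ac) was compared between HT29 cells, an established human colorectal cancer line, treated with 10 μM rosiglitazone for 24 h and cells given the DMSO vehicle. The members are the 4 H3K27ac ChIP-seq libraries with these labels, 2 replicates per group, out of 82 samples in the series, and the sites that their peaks define. For the DMSO libraries no time is labelled, and the study places them at 0 h. If so, effects of the drug and of 24 h in culture cannot be told apart for H3K27ac and RNAP2. The RNA controls, by contrast, are labelled as 24 h of DMSO. All cells had been grown in phenol-red-free medium with charcoal-treated serum before treatment, so both groups shared a supply of serum lipids and steroids that had been reduced. HT29 is a single cell line, and nothing in the labels says whether the replicates came from separate cultures, so the spread between them may be technical. Peaks of PPARG after 2 and 48 h of rosiglitazone, of JunD in DMSO-treated cells, and of RNA polymerase II (RNAP2) in DMSO-treated cells and after 24 h of rosiglitazone served as annotation. The DMSO libraries of JunD and RNAP2 carry no labelled time either. H3K27ac libraries of 48 h rosiglitazone and of 24 and 48 h GW3965 were used for comparison. RNA libraries of 24 h were used for DMSO, rosiglitazone, GW3965 and T0901317. GW3965 and T0901317 are agonists of the liver X receptors and were also given at 10 μM.

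H3K27ac is placed by the acetyltransferases EP300 and CREBBP, removed by histone deacetylases, and marks active promoters and enhancers. PPARG is a nuclear receptor that binds DNA as a heterodimer with RXR, and rosiglitazone is its agonist. Agonist binding replaces corepressors on the receptor with coactivators, some of which recruit acetyltransferases, and in the intestinal epithelium PPARG is known for its part in lipid metabolism and differentiation. JunD is a subunit of the transcription factor AP1.

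The DMSO libraries held 23015 and 27701 peaks in replicates 1 and 2, and the rosiglitazone libraries held 26705 and 27633. Each peak has a deposited score, 10 times the negative log10 of its MACS p-value, that rises with both enrichment and depth. Median scores were 276 and 379.6 with DMSO and 370.5 and 348.7 with rosiglitazone, and median widths were 1858 and 2085 bp with DMSO and 2136 and 2192 bp with rosiglitazone. DMSO replicate 1 stood apart as the weakest library, with 49.4 Mb under its peaks against 67.9 to 72.6 Mb in the other 3, and with 33 peaks at a score of 3100 or more against 377 to 514. Both rosiglitazone libraries had a larger median width than both DMSO libraries (exact two-sided permutation p = 0.333, the smallest that 2 against 2 libraries allow), while peak numbers, covered length and median scores overlapped between the groups. The headers of the peak files name the same control library for the H3K27ac and RNAP2 replicates of a group and another for the other group, although the labels list replicate inputs for rosiglitazone. Depth in reads is unknown here.

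More H3K27ac sites appeared than disappeared. Overlapping peaks of both replicates of a group were merged into 1 site, which gave 19892 sites with DMSO and 23174 with rosiglitazone. Of the rosiglitazone sites, 5965 overlapped no DMSO site and were gained (25.7%, Wilson 95% interval 25.2 to 26.3). Of the DMSO sites, 2374 overlapped no rosiglitazone site and were lost (11.9%, 11.5 to 12.4), and 16920 merged sites were shared. These intervals, and those given further on, cover counting error only. Without rosiglitazone replicate 1 there were 9194 gained and 1652 lost sites. With the same number of highest scoring peaks kept per library, the difference shrank to 4430 gained and 3042 lost. Without DMSO replicate 1 the order turned, with 3619 gained and 7020 lost.

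At many gained and lost sites, 1 replicate of the other group did have a peak. Among gained sites, 2328 had a peak in DMSO replicate 2 alone, 582 in DMSO replicate 1 alone and 21 in both without a common site. No peak of either DMSO library lay in the remaining 3034 sites, which were 13.1% of the rosiglitazone sites. Among lost sites, 1155 had no peak in either rosiglitazone library, which was 5.81% of the DMSO sites. At a score above 500 in both libraries of the group that had the site, 169 gained sites and 4 lost sites had no peak in the other group. Median scores were 145.6 and 245.5 in DMSO replicates 1 and 2 at lost sites, and 213.4 and 222.8 with rosiglitazone at gained sites. Scores rise with depth and DMSO replicate 1 was the weakest library, so this cut did not fall equally on both classes. Gained and lost sites were equally narrow, with median widths of 1809 and 1805 bp against 2976 bp at shared sites.

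Distances were taken to the nearest site of the other group found in both of its replicates, so peaks of 1 replicate were not counted. The median distance from a gained site to the nearest DMSO site was 21.4 kb, and 1877 gained sites (31.5%) were more than 50 kb from any DMSO site. For lost sites, the median distance to the nearest rosiglitazone site was 13.8 kb, and 436 (18.4%) were more than 50 kb away. A further gained site lay within 10 kb of 22.8% of gained sites, and a further lost site lay within 10 kb of 10.2% of lost sites. Gains numbered up to 7 in a single run, at chr9:108016153-108060499 (hg19), where 2 of the 7 sites held a PPARG site of 2 h. That run was picked after its values had been seen.

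The highest gained sites went from no peak to scores above the medians of shared sites, which were 582 and 565 in the rosiglitazone libraries. At chr11:103674721-103679875, neither DMSO library had a peak, and the rosiglitazone libraries scored 1853 and 1781. The site at chr20:4492793-4496486 scored 1490.1 and 1420.1, chr5:124735541-124739745 scored 1366 and 1426, and chr4:87417344-87423287 scored 1319 and 1916, each with no DMSO peak. All 4 were still acetylated in both libraries of 48 h rosiglitazone, with scores between 816 and 1749.6. The next 4 in order, at chr7:12960736-12965706, chr16:68954983-68958443, chr9:75730874-75736141 and chr12:90352895-90357888, scored between 1102 and 1674 with rosiglitazone. All 8 of these sites overlapped a PPARG site at 2 h and at 48 h and an RNAP2 site in both groups, and 4 overlapped a JunD site.

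The highest lost sites had lower scores than the highest gained sites. Their rank followed the lower DMSO score, which came from the weaker replicate 1 at all 8. The site at chr19:38662970-38666336 scored 541 and 859 with DMSO, chr3:128077616-128082021 scored 537 and 601, chr12:110257614-110262110 scored 526 and 697, and chr22:21319259-21321487 scored 502 and 674. None had a peak in the rosiglitazone libraries of 24 h. The other 4, at chr11:66485016-66489307, chr11:69704742-69710509, chr2:64832839-64835864 and chr11:2906042-2907248, scored between 386 and 1024 with DMSO. Of the 8 lost sites, 1 overlapped a PPARG site, none a JunD site, 5 an RNAP2 site of DMSO and none an RNAP2 site of 24 h rosiglitazone. Peaks returned at 48 h in at least 1 library at 6 of the 8.

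**Figure D1:**
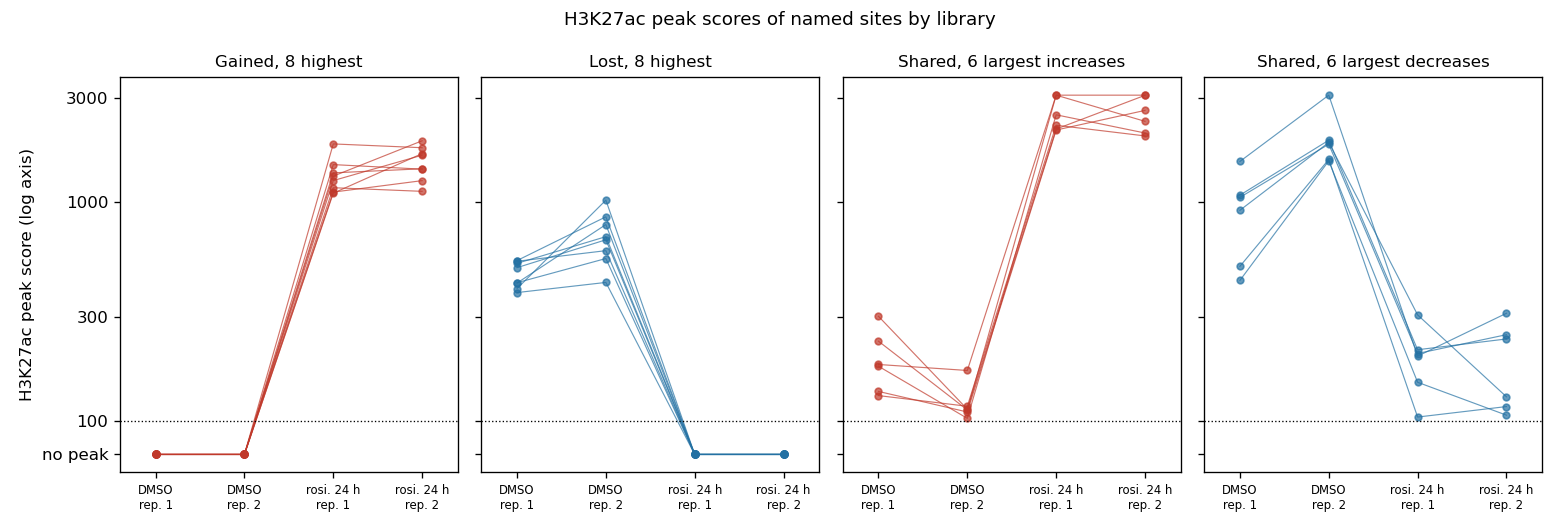
Peak scores (log axis) of named H3K27ac sites in each library, 1 line per site; points at "no peak" mark a library without a peak, and the dotted line is the lowest deposited score of 100. The 8 gained sites lie between 1102 and 1916 with rosiglitazone, and the 8 lost sites between 386 and 1024 with DMSO.

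PPARG occupied gained sites more often than shared or lost ones. It was mapped only after rosiglitazone, so PPARG binding in DMSO-treated cells is unknown here. A PPARG site of 2 h overlapped 2419 gained sites (40.6%, interval 39.3 to 41.8), 4945 shared sites (29.2%, 28.6 to 29.9) and 293 lost sites (12.3%, 11.1 to 13.7). A PPARG site of 48 h overlapped 29.9% of gained, 19.0% of shared and 4.25% of lost sites. PPARG was found at both times at 28.4% of gained, 18.5% of shared and 4.09% of lost sites. Because wider sites overlap more, the shares with PPARG at 2 h were also taken within widths. Between 1 and 2 kb they were 29.5% of gained, 9.9% of shared and 7.9% of lost sites, and between 2 and 4 kb they were 56.2%, 22.2% and 17.9%. The share also rose with the score of the gained sites, from 27.9% where the lower of both scores was between 100 and 150 to 74.8% where it was above 500. Across leaving out each H3K27ac library in turn, the share of gained sites with PPARG stayed between 32.2% and 43.5% and that of lost sites between 10.7% and 12.5%.

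Not every PPARG site carried a gain. Of 14249 PPARG sites of 2 h, 2562 (18.0%) lay in a gained site, 307 (2.16%) in a lost site and 6008 (42.2%) in a shared site, and 5376 (37.7%) lay in no H3K27ac site. For the 8317 PPARG sites of 48 h, the shares were 21.9%, 1.25%, 43.6% and 33.3%.

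**Figure D2:**
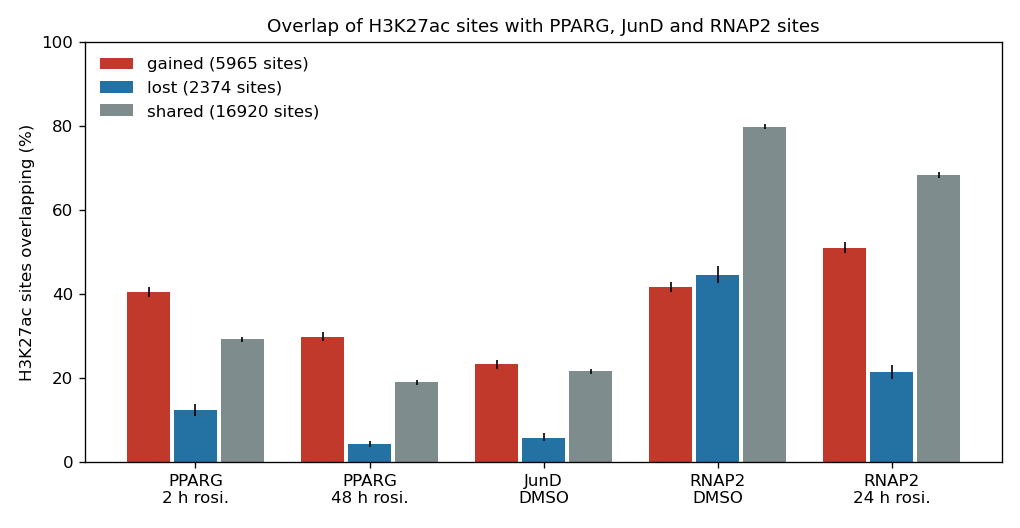
Share of gained, lost and shared H3K27ac sites (%) that overlap a PPARG, JunD or RNAP2 site found in both replicates; error bars are Wilson 95% intervals. PPARG at 2 h overlaps 40.6% of gained, 12.3% of lost and 29.2% of shared sites.

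The position of PPARG within the sites was taken from the centres. Centres of PPARG sites of 2 h fell within 200 bp of the centre of the H3K27ac site at 19.9 per 100 gained sites, 8.29 per 100 shared sites and 5.39 per 100 lost sites. These numbers rise with how often PPARG is present. Of all PPARG centres within 3 kb, 39.6% lay within 200 bp of the centre at gained sites, 33.9% at lost sites and 23.7% at shared sites, which are wider. For JunD there were 11.1, 5.6 and 1.85 centres per 100 gained, shared and lost sites within 200 bp, or 40.5%, 24.1% and 25.7% of all centres within 3 kb.

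**Figure D3:**
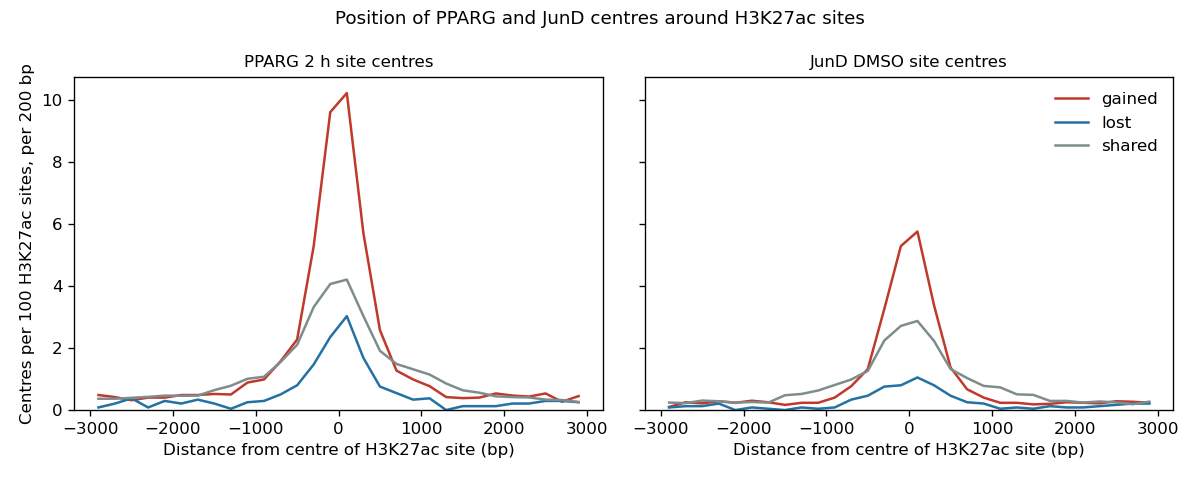
PPARG (2 h rosiglitazone) and JunD (DMSO) site centres per 100 H3K27ac sites, in bins of 200 bp by distance from the centre of the H3K27ac site (bp). The lines for gained sites peak at the centre above those for shared and lost sites.

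JunD, mapped in cells given DMSO, overlapped 1390 gained sites (23.3%, interval 22.3 to 24.4), 3660 shared sites (21.6%, 21.0 to 22.3) and 139 lost sites (5.86%, 4.98 to 6.87). Gained and shared sites differed little as a whole, but gained sites are narrower. Between 1 and 2 kb, 17.4% of gained and 6.4% of shared sites held JunD, and between 2 and 4 kb 32.4% and 14.9% did. PPARG and JunD were found together at 947 gained sites (15.9%), 2482 shared sites (14.7%) and 70 lost sites (2.95%). Neither was found at 52.0% of gained, 63.8% of shared and 84.8% of lost sites.

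RNAP2 followed the direction of H3K27ac. Among gained sites, 41.7% overlapped an RNAP2 site of DMSO-treated cells and 51.1% one of 24 h rosiglitazone, and among lost sites the shares were 44.7% and 21.4%. RNAP2 was found with rosiglitazone and not with DMSO at 862 gained sites (14.5%), 27 lost sites (1.14%) and 455 shared sites (2.69%). The reverse held at 304 gained sites (5.1%), 580 lost sites (24.4%) and 2392 shared sites (14.1%). Where all 4 RNAP2 libraries had a peak, RNAP2 scores were centred on their library medians over shared sites. The median log2 change of the RNAP2 score was 0.45 at 2176 gained sites and -0.48 at 477 lost sites, against -0.0017 at 11147 shared sites. Both rosiglitazone libraries were above both DMSO libraries at 38.4% of those gained sites and 5.87% of those lost sites, against 20.8% of shared sites. By the file headers, H3K27ac and RNAP2 share a control library within each group, and its part in this was not tested.

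At the 16920 shared sites the score test asked which sites changed in strength. The log2 of the highest score of each library in a site, centred on the library's median, was fitted with limma. At a Benjamini-Hochberg adjusted p under 0.05, 649 sites (3.84%) were higher and 465 (2.75%) were lower with rosiglitazone. These calls rested on few libraries: a fit of all 10 H3K27ac libraries, a replicate block, and leaving out DMSO replicate 2, rosiglitazone replicate 1 or rosiglitazone replicate 2 each gave 0 higher and 0 lower, and without DMSO replicate 1 there were 849 higher and 136 lower. At an unadjusted p under 0.05 the fit of all 10 libraries had 1256 sites higher and 1304 lower, and without centring of the libraries the calls were 704 higher and 68 lower. By log2 score the replicates correlated at 0.83 with DMSO and 0.90 with rosiglitazone across these sites, and libraries of different groups at 0.58 to 0.69. Sites are not independent replicates.

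The largest increases at shared sites began near the lowest deposited score. At chr4:153406182-153409439 the scores were 136 and 109.5 with DMSO and 2146 and 2640 with rosiglitazone, a log2 change of 4.09 (SE 0.47, limma adjusted p = 0.036). At chr9:75762397-75770856 they were 181 and 169.8 with DMSO and 3100 in both rosiglitazone libraries, the value at which scores pile up, so the log2 change of 3.95 (SE 0.41) may be cut short by it. This site lies near the gained site named on the same chromosome. The others among the 6 largest, at chr7:80349349-80356687, chr6:126233922-126237076, chr13:45825964-45832790 and chr13:73542594-73546201, had log2 changes between 3.61 and 3.92. Of these, chr13:45825964-45832790 was also at 3100 in rosiglitazone replicate 1. All 6 overlapped a PPARG site of 2 h, a JunD site and an RNAP2 site of both groups. Their scores at 48 h of rosiglitazone were between 1488 and 3100.

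The largest decrease was at chr11:2112894-2125881, with 1540.4 and 3100 with DMSO and 197.5 and 310.5 with rosiglitazone, a log2 change of -3.34 (SE 0.33, limma adjusted p = 0.036). DMSO replicate 2 stood at 3100, where scores pile up, so this change may also be cut short. At chr16:57518059-57521259 the scores were 509 and 1573 with DMSO and 104 and 116 with rosiglitazone, a log2 change of -3.23 (SE 0.33). The other 4, at chr3:126468541-126475072, chr6:30041158-30044763, chr2:218762293-218769579 and chr11:74174340-74179679, had log2 changes between -2.93 and -2.84. Of the 6, 2 overlapped a PPARG site of 2 h, none a JunD site and 5 an RNAP2 site of DMSO, of which 1 also overlapped one of 24 h rosiglitazone. All 12 of these sites passed the threshold with quantile normalization as well.

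Score changes were sorted by PPARG and JunD. A PPARG site of 2 h was present at 506 of the 649 higher sites (78.0%, interval 74.6 to 81.0), at 63 of the 465 lower sites (13.5%, 10.7 to 17.0) and at 27.7% of the sites not called. JunD was present at 61.8%, 4.52% and 20.5% of them. Read the other way, 10.2% of shared sites with PPARG were called higher and 1.27% lower, and without PPARG 1.19% were higher and 3.36% lower. The median log2 score change was 0.39 with PPARG and -0.20 without it. It kept these signs without each library in turn, between 0.34 and 0.44 with PPARG and between -0.22 and -0.17 without, while without centring the medians were 0.59 and 0.0038.

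Shared sites were then split by the presence of PPARG and JunD. The median log2 score change was 0.66 at 2482 sites with both, 0.16 at 2463 sites with PPARG alone, 0.15 at 1178 sites with JunD alone and -0.23 at 10797 sites with neither. At sites where PPARG was found at 2 h and at 48 h the median was 0.63, and where it was found at 2 h and not at 48 h it was 0.07. The change also grew with the PPARG score: from the lowest to the highest quintile of the lower PPARG score of both replicates, the medians were 0.14, 0.24, 0.26, 0.54 and 0.90. In the lowest quintile 4.45% of sites were called higher and 2.53% lower, and in the highest 21.5% and 0.10% were.

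A count without a model gave the same order. After centring, rosiglitazone scores were at least 2-fold above DMSO on average, and both above both DMSO scores, at 2026 shared sites (12.0%), and correspondingly below at 1721 (10.2%). Sites with PPARG and JunD had 37.3% above and 1.77% below, and sites with neither had 4.43% above and 13.1% below. Sites where RNAP2 was found with rosiglitazone and not with DMSO had 26.6% above and 0.88% below, and sites with the reverse had 3.22% above and 24.8% below.

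**Figure D4:**
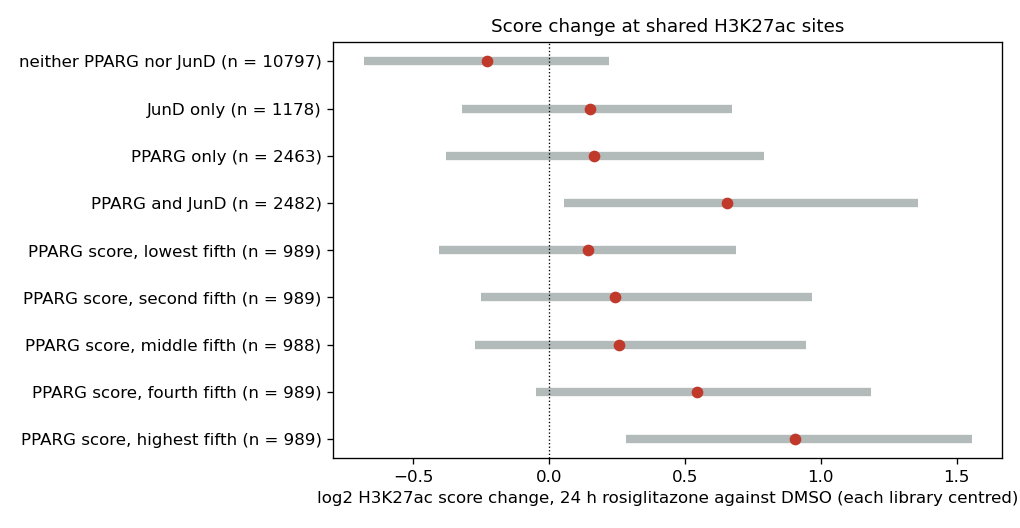
Median (point) and interquartile range (bar) of the log2 H3K27ac score change at shared sites, by overlap with PPARG (2 h) and JunD and, for sites with PPARG, by quintile of the PPARG score; n is the number of sites. The median rises from -0.23 at sites with neither factor to 0.66 with both, and to 0.90 in the highest quintile of PPARG score.

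Width changes did not pass the test. On the summed peak length per library, limma called 0 of 16920 shared sites (0.0%) at an adjusted p under 0.05, with 1311 sites wider and 679 narrower at an unadjusted p under 0.05, and the fit of all 10 libraries called 12 wider and 5 narrower. Without DMSO replicate 2 there were 225 wider and 11 narrower. At chr12:76104144-76109072 the widths were 739 and 765 bp with DMSO and 4400.0 and 4929 bp with rosiglitazone, a log2 change of 2.45 (SE 0.12). At chr10:111839457-111844225 they were 1126 and 1030.0 bp with DMSO and 4595 and 4673 bp with rosiglitazone. The other 2 largest increases, at chr18:28976355-28983843 and chr3:111680309-111687596, had log2 changes of 2.17 and 1.84, and all 4 overlapped PPARG at 2 h and 48 h. The largest decrease was at chr22:23875513-23878369, with 2516 and 2857 bp with DMSO and 764 and 768 bp with rosiglitazone. The next 3, at chr20:61395745-61405122, chr12:6647424-6652508 and chr12:65070581-65075676, had log2 changes of -1.65, -1.58 and -1.48, and none of the 4 overlapped PPARG. At the last of these the score moved the other way, with 129 and 207 with DMSO and 470.1 and 364 with rosiglitazone. The groups did not overlap at any of these 8 sites, which were chosen for that, and both rosiglitazone widths lay above both DMSO widths, after centring, at 17.3% of shared sites and below them at 32.0%.

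Most gained sites were found again at 48 h of rosiglitazone, in libraries that did not define them. Peaks were present in 48 h replicates 1 and 2 at 86.1% and 70.9% of gained sites, at 54.1% and 46.1% of lost sites and at 97.6% and 96.9% of shared sites. Both 48 h libraries had a peak at 4017 gained sites (67.3%, interval 66.1 to 68.5) and 866 lost sites (36.5%, 34.6 to 38.4). With PPARG at 2 h, 92.2% and 82.0% of gained sites had a peak in 48 h replicates 1 and 2, and without it 81.8% and 63.3% did. Gained sites with a score above 500 in both libraries were found in 99.6% and 99.8% of cases.

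The libraries of GW3965, an agonist of the liver X receptors, differed by replicate. At 24 h of GW3965, replicates 1 and 2 had a peak at 47.0% and 50.5% of gained sites and at 83.0% and 56.6% of lost sites. At 48 h they had one at 53.4% and 57.8% of gained sites and at 87.9% and 51.5% of lost sites. Over 13630 shared sites with a peak in all 10 libraries, the 522 sites called higher had a median centred log2 score of -0.92 and -1.29 in the DMSO libraries, 1.05 and 0.999 at 24 h and 0.93 and 0.80 at 48 h of rosiglitazone. GW3965 replicate 1 had -1.12 at 24 h and -0.64 at 48 h, and replicate 2 had 0.13 and 0.57. The 307 sites called lower had 0.31 and 0.30 with DMSO, -1.40 and -1.44 at 24 h and -0.82 and -0.73 at 48 h of rosiglitazone, -0.07 and -0.0037 in GW3965 replicate 1 and -0.42 and -0.71 in replicate 2. Values of the DMSO and 24 h rosiglitazone libraries chose these sites and are a description only.

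**Figure D5:**
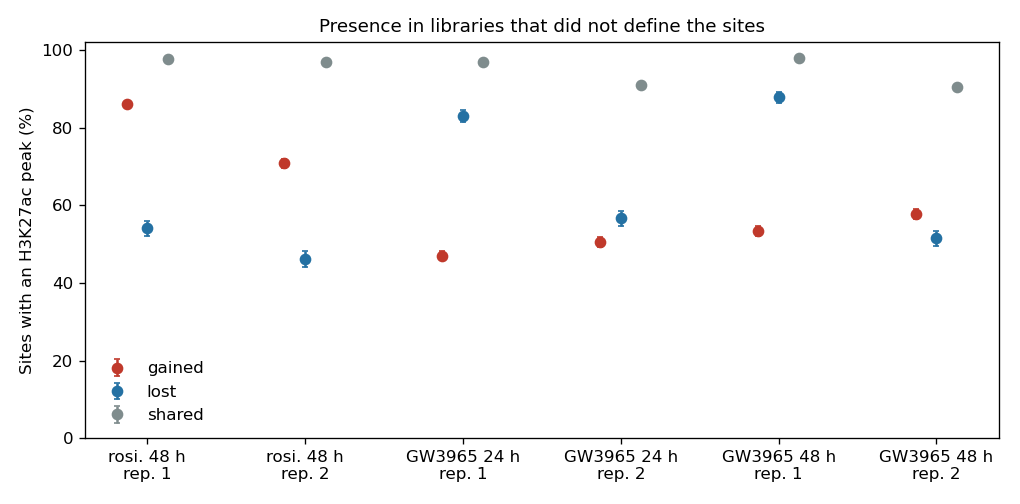
Share (%) of gained, lost and shared sites with an H3K27ac peak in each library of 48 h rosiglitazone and of 24 and 48 h GW3965; error bars, mostly smaller than the points, are Wilson 95% intervals. Gained sites reach 86.1% and 70.9% in the 48 h rosiglitazone libraries, and lost sites 83.0% and 87.9% in replicate 1 of 24 and 48 h GW3965.

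RNA of the same treatment at 24 h, 4 libraries per group with totals of 30834003 to 40617171 counts, was read for 8 lists of genes. They held writers, erasers and readers of histone acetylation, which need not act on H3K27. The other lists were coactivators, corepressors, receptors and factors, and genes of acetyl-CoA supply and H3K27 methylation. The GW3965 and T0901317 libraries of 24 h also entered the estimate of the spread. Of 74 listed genes 70 were tested, and 8 were higher and 6 lower with rosiglitazone at an adjusted p under 0.01 in edgeR's quasi-likelihood test, with a median log2 change of 0.04 over the list and -0.02 over all genes tested. With only the DMSO and rosiglitazone libraries in the fit, 21 listed genes were called in place of 14. Over all 21781 genes tested, 5.81% were higher and 6.52% were lower. With all cells in bulk, a change in the share of cells and a change of RNA per cell cannot be told apart. Epithelial markers were present throughout, with KRT8 at 8860 to 11000.0 CPM (counts scaled to library size) and EPCAM at 314 to 356 CPM. Their levels ranged widely, with CEACAM5 at 14.5 to 37.5, CDX2 at 13.5 to 20.6 and CDX1 at 1.76 to 3.58 CPM. Of 10 measured markers of other cells, COL1A2, COL3A1, DCN and CD3E were at 0 in every library. COL1A1 was at 2.42 to 5.08 CPM, no lower than CDX1, and CD14 reached 1.88 CPM.

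The main H3K27 acetyltransferases were not called. EP300 had 95.5, 89.2, 89.1 and 88.5 CPM with DMSO and 90.7, 77.5, 96.2 and 76.5 with rosiglitazone, and the groups overlapped (log2 change -0.09, SE 0.07, edgeR adjusted p = 0.44). CREBBP was at 126 ± 6.64 and 128 ± 11.8 CPM (SD, n = 4). KAT2A, another acetyltransferase, rose from 142 ± 10.6 to 185 ± 8.31 CPM (SD, n = 4, log2 change 0.38). Of 15 erasers, SIRT7 rose (log2 change 0.33) and none was called lower, and of 12 readers YEATS2 fell by 0.34 on the log2 scale. Among 6 genes of H3K27 methylation, which competes with acetylation for the same residue, EZH1 fell by 0.37 on the log2 scale.

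The receptor and its cofactors changed in both directions. PPARG had 45.5, 41.8, 46.5 and 47.4 CPM with DMSO and 30.4, 32.3, 30.6 and 35.2 with rosiglitazone. Every rosiglitazone library was below every DMSO library (log2 change -0.50, SE 0.07, edgeR adjusted p = 3.84e-05). Of 11 coactivators tested, PPARGC1B, a coactivator of nuclear receptors in energy metabolism, rose from 18.6 ± 1.79 to 37.0 ± 3.2 CPM (SD, n = 4, log2 change 0.99), and NCOA1 and NCOA2 of the p160 family fell by 0.50 and 0.33 on the log2 scale. Of 6 corepressors, NRIP1 (log2 change 0.43) and TBL1X (0.31) rose. JUND was at 108 ± 6.99 and 118 ± 6.49 CPM (SD, n = 4) and was not called.

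Of 12 tested genes of acetyl-CoA supply 3 rose and 1 fell. PDK4, a kinase that inhibits the pyruvate dehydrogenase complex, had 4.23, 4.83, 4.85 and 4.61 CPM with DMSO and 24.5, 30.3, 28.5 and 27.6 with rosiglitazone (log2 change 2.58, SE 0.10, edgeR adjusted p = 1.12e-12). SLC25A1, the mitochondrial citrate carrier, rose from 469 ± 23.3 to 688 ± 22.5 CPM (SD, n = 4, log2 change 0.55), and PDHA1, a subunit of the same dehydrogenase, rose by a log2 change of 0.23. ACSS2, which makes acetyl-CoA from acetate, had 18.0, 16.8, 15.5 and 15.8 CPM with DMSO and 12.0, 10.2, 14.5 and 8.49 with rosiglitazone (log2 change -0.55). ACLY, which makes it from citrate, was not called, with 529 ± 43.8 and 569 ± 36.9 CPM (SD, n = 4). With library size scaling in place of TMM the list had 5 genes higher and 12 lower, and at a fold change of at least 1.5 it had 2 higher, PDK4 and PPARGC1B, and 0 lower. Without DMSO replicate 2 it had 5 higher and 4 lower.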

How the data were processed

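ChIP-seq peaks of HT29 cells were used as the authors deposited them, 1 file per replicate. Per the submitters' processing notes, reads were mapped with Bowtie to hg19 and peaks called with MACS against an input, with versions not stated there. The deposited score is minus 10 times the log10 of the MACS p-value, with no scaling for depth. Scores pile up at 3100, and such sites were kept because they are not the highest score of a file. For RNA, the authors deposited whole-number counts per gene, for which the processing notes name TopHat, Cufflinks and hg19, with the counting program and strand setting not stated there. Overlap needed at least 1 bp, on chromosomes 1 to 22 and X. Shared sites were tested with limma 3.58.1 and RNA counts with edgeR 4.0.16 (filterByExpr, TMM, the 16 libraries of 24 h), with DESeq2 1.42.0 as an alternative, in R 4.3.3 and Python with pandas and numpy. Of 200 changed sites in simulated data, limma recovered 97% of those with a log2 score change of 2 (9 false calls in all). The simulated errors were independent and normal, with the same SD of 0.367 (log2) at every site. Real sites differed in their spread, so this does not give the power of the test there. For RNA, edgeR recovered 99.5% of 200 genes changed 2-fold in simulated counts (2 false calls). Members and lists were chosen with earlier results of these data known. Named regions, none on chromosome 8, were the 8 highest gained and lost sites with no peak in the other group, the 6 largest called score changes and the 4 largest width changes in each direction. Named genes were PPARG, EP300, CREBBP, JUND, PDK4 and list genes that were called, of which some beyond the 8 largest changes, and ACLY, were named after their values were seen. 1 gene of the rule is not reported here. POLR2A was not analysed here, nor were genes near sites, since no annotation of hg19 was used. Alternatives covered overlap, score limit, peak number, centring, libraries in the fit, a replicate block and leaving out libraries.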

Additional observations from a re-analysis of the deposited data

Results flagged for a closer look

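Of 22 groups of 4 RNA libraries checked for a library far from the others, 1 stood out, where chance gives about 1 in 20. In the DMSO group EP300 had 95.5 CPM in replicate 1 against 88.5 to 89.2 CPM in the other libraries, a gap of 0.906 of the whole range.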

How the results depend on the processing

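Gained and lost sites were 3034 and 1155 with no peak of either library of the other group, and lost sites were 1491 at scores of at least 200. Gained and lost sites were 4430 and 3042 with the same number of peaks per library. Without single libraries, gained sites ran from 3619 to 9194 and lost sites from 1652 to 7020. The share of gained, lost and shared sites with PPARG at 2 h was 55.6%, 24.1% and 43.6% with factor peaks of either replicate. In a window of 500 bp to each side of the centre it was 39.0% of gained and 24.2% of shared sites. With the same number of peaks per library it was 46.6% of gained sites, and with no peak in the other group, added after the data were seen, 44.3% of gained and 9.35% of lost sites. Without single libraries it ran from 32.2% to 43.5% of gained, from 10.7% to 12.5% of lost and from 28.4% to 30.1% of shared sites. Presence in 48 h replicates 1 and 2 was 81.2% and 67.3% of gained and 42.5% and 39.9% of lost sites with the same number of peaks, and 83.4% and 62.7% of gained and 39.7% and 34.1% of lost sites with no peak in the other group. Without single libraries it ran from 71.9% to 85.3% and from 53.7% to 69.9% of gained, and from 37.4% to 51.2% and from 29.3% to 46.9% of lost sites.

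Sites with a higher and a lower score were 0 and 0 in the fit of all 10 libraries, 0 and 0 with a replicate block, and 1180 and 1116 over sites of either group with missing scores at the lowest. Without centring 68 were lower. Without single libraries they ran from 0 to 849 and from 0 to 136. Wider and narrower sites were 12 and 5 in the fit of all 10 libraries, ran from 0 to 225 and from 0 to 11 without single libraries, and were 0 with the replicate block. Same-numbered libraries deviated from their group means with a correlation of -0.17 for scores, and a crossed replicate block, added after the data were seen, gave 1601 higher and 1259 lower scores and 324 wider and 52 narrower sites. Without centring the median score change of shared sites turned to 0.0038 without PPARG and 0.0322 without JunD.

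In RNA, the list had 5 genes higher and 12 lower with library size scaling, 2 and 0 at a fold change of at least 1.5, and 7 and 8 with a replicate block, whose numbers did not pair the libraries (deviation correlations -0.19 to 0.04). Without single libraries it had 5 to 7 higher and 4 to 6 lower. CREBBP turned to -0.0703 (log2) with library size scaling and ran from -0.0144 to 0.0714 without single libraries. The cause of these shifts was not tested. Keeping sites at the pile of scores was the same as the fit reported, and genes near sites could not be looked up, so that alternative was not run. Peak scores are not scaled for read depth, which is unknown here. A site that fell under the score limit of 100 in 1 library counts as absent there.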

Other observations

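The share of gained sites differed between chromosomes. It was highest on chromosome 4, with 38.8% of 1158 rosiglitazone sites, and lowest on chromosomes 17 and 19, with 13.5% of 1126 and 13.6% of 957. Lost sites were 9.06% of DMSO sites on chromosome 4, 13.3% on chromosome 17 and 15.7% on chromosome 19, and on chromosome 19 more sites were lost than gained (155 against 130). No test was made of these shares.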
